A study of Homo sapiens with 11 samples.

Results

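Untreated RKO and HCT-116 cells, a pair of established human colorectal cancer lines, were compared across all expressed genes. The comparison took the libraries of cells kept in medium with 0.1% dimethyl sulfoxide (DMSO), the vehicle of the study: HCT-116 with DMSO (n = 3, replicates 1, 2 and 3) and RKO with DMSO (n = 2, replicates 2 and 3). No library of cells given phenylacetaldehyde was used, so 5 of the 11 libraries analysed in the series entered. Of 60612 genes in the gene table, 13071 had a value of at least 1 FPKM in at least 2 of these 5 libraries and were compared. FPKM, fragments per unit of transcript length and of mapped fragments, is a level scaled for length and library depth. In bulk RNA of a line, fewer cells with a transcript and less of it per cell cannot be told apart. The labels give a time for the aldehyde and none for the vehicle. Whether replicates are separate cultures is not stated, and p-values then reflect only how far these libraries spread, which may be technical.

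HCT-116 and RKO both come from colon carcinomas with defective DNA mismatch repair, the system that corrects copying errors after replication. As background, HCT-116 is known for a stabilising mutation of beta-catenin, the transcriptional effector of canonical Wnt signalling. RKO is known for an activating BRAF mutation and for poorly differentiated growth. Colonic epithelial cells are held together by E-cadherin junctions, desmosomes and tight junctions, carry keratin filaments, and are maintained by Wnt and EGF receptor signals. Epithelial-mesenchymal transition (EMT) is the programme in which repressors such as ZEB1 silence these adhesion genes.

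Sequencing depth, estimated from the value that 1 fragment adds, was 16340000 fragments in HCT-116 replicate 1 and 20970000 to 22780000 in the other 4 libraries. HCT-116 libraries had 12061 to 12133 genes at an FPKM of at least 1 and RKO libraries had 11634 and 11644. The first principal component of log2(FPKM + 1) held 89% of the variance and separated the lines. Mitochondrially encoded genes, coding and noncoding, took 39.3% ± 1.0 of all FPKM in HCT-116 (SD, n = 3) and 34.4% ± 0.79 in RKO (SD, n = 2). The difference had a p of 0.1 by a two-sided exact permutation test, the smallest p that 2 against 3 libraries allow. The 13 coding genes alone summed to 113100, 109800 and 104100 FPKM in HCT-116 and to 101900 and 110700 in RKO, so these sums overlapped between lines. Among the 100 protein-coding genes with the largest excess in RKO, the median level in HCT-116 replicates 1, 2 and 3 was 1.27%, 1.72% and 1.6% of the RKO mean, and 30, 9 and 9 of them were listed at 0. Among the 100 with the largest excess in HCT-116, the median level in RKO replicates 2 and 3 was 0.256% and 0.199% of the HCT-116 mean. In RKO replicates 2 and 3, 11 and 27 of them were listed at 0. HCT-116 replicate 1 and RKO replicate 3 thus listed more of these genes at 0 than the other libraries of their lines, and a source of the low values was not tested.

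The 4 genes used to check the labels gave a mixed picture. EPCAM, an epithelial surface adhesion protein (ENSG00000119888; GRCh38 chromosome 2, 47345158 to 47387601, plus strand), had an FPKM of 93.7, 91.6 and 93.9 in HCT-116 and 6.05 and 4.62 in RKO. CDH1, which encodes E-cadherin (chromosome 16, 68737225 to 68835548, plus strand), had 8.94, 6.74 and 6.78 in HCT-116 and 0.127 and 0.0455 in RKO. CDX2, the intestinal homeobox factor, was at 4.50, 4.62 and 4.76 in HCT-116 and 3.82 and 4.36 in RKO, a log2 difference of -0.15 (limma adjusted p = 0.11) that did not pass the test, so the intestinal marker was present in both lines. VIM, the mesenchymal filament protein vimentin, was low throughout at 0.909, 2.17 and 1.16 in HCT-116 and 2.27 and 2.66 in RKO and did not pass at 0.56 (limma adjusted p = 0.093), though without HCT-116 replicate 2 it did, at 0.77 (adjusted p = 0.0062). By transcript, VIM-201 was at 1.04, 4.5 and 1.7 in HCT-116 and 0.041 and 0.056 in RKO. VIM-209 ran the other way, at 0.979, 0.271 and 0.268 in HCT-116 and 3.54 and 5.17 in RKO. Both epithelial surface genes were far lower in RKO, with EPCAM still present and CDH1 near 0, and CDX2 was shared. Of 30 markers of blood, immune, stromal, endothelial, muscle, liver, islet, neural and pigment cells, 5 reached the level for testing. PTPRC, CD3E, CD3D and MS4A1 were listed at 0 in all 5 libraries. Some liver and islet transcripts differed between libraries of a line. TTR was at 0, 3.55 and 2.91 in HCT-116 and 0.0942 and 13.6 in RKO. GCG was at 0, 0 and 0.0293 in HCT-116 and 0 and 1.74 in RKO. ALB was at 0, 1.54 and 0.0891 and APOA1 at 0.0556, 1.26 and 0.0843 in HCT-116, and both were listed at 0 in RKO. Their source was not tested. The 30 markers summed to 11.8 to 19.0 FPKM in HCT-116 libraries and to 208 and 223 in RKO libraries. CD68, a lysosomal protein used to mark macrophages, made up most of the RKO sum at 205 and 203, against 2.68, 2.81 and 1.6 in HCT-116, while CD14, another macrophage marker, was at 0.0469 and 0 in RKO and 0.100, 0.106 and 0.0421 in HCT-116.

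Most genes differed between the lines. By limma's moderated test on log2(FPKM + 1), with p-values adjusted by Benjamini-Hochberg over all genes tested, 8427 of 13071 genes passed an adjusted p of 0.05, 64.5% of those tested. Of these, 4367 were higher in RKO (33.4%) and 4060 lower (31.1%). Because so many genes passed, a second rule also asked for an absolute log2 difference of at least 1. It left 2483 genes (19.0%), 1038 higher in RKO (7.94%) and 1445 lower (11.1%). A log2 difference of at least 3 was reached by 83 genes higher and 181 lower in RKO. The values of the lines did not overlap for 77.6% of genes tested. Counts of list members below are to be read beside 64.5% passing and 19.0% with a log2 of at least 1. A list near these shares differed about as often as all genes tested. All log2 differences are RKO minus HCT-116 on the log2(FPKM + 1) scale, which understates the change of low genes, and the median over all genes tested was 0.03.

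The genes with the largest excess in RKO came from varied classes. G0S2, an inhibitor of the lipase ATGL, had an FPKM of 555 and 532 in RKO and 0, 1.53 and 0.884 in HCT-116, a log2 difference of 8.34 ± 0.405 (SE, limma adjusted p = 6.8e-05). STC1, the secreted glycoprotein stanniocalcin-1, had 174 and 170.0 in RKO and 0.0295, 0.223 and 0.101 in HCT-116, a difference of 7.28 ± 0.0847 (SE, limma adjusted p = 2.4e-06). BST2, the interferon-inducible tetherin that holds enveloped viruses at the cell surface, had 244 and 238 in RKO and 0.265, 1.29 and 0.883 in HCT-116. RKO levels of all 3 stood far above every HCT-116 library. LCP1, the leukocyte actin-bundling protein L-plastin, had 132 and 126 in RKO and 0.213, 0.389 and 0.231 in HCT-116. MAP1LC3C, a member of the ATG8 family that coats autophagosomes, had 109 and 106 in RKO and 0, 0.0772 and 0.158 in HCT-116. CLEC11A, a secreted growth factor with a C-type lectin domain, had 170.2 and 174 in RKO and 0.0511, 2.73 and 2.63 in HCT-116, so its trace in HCT-116 differed between replicate 1 and the other 2. The remaining 6 were CD68, BCL2A1, an anti-apoptotic BCL2 relative, MT1M, a metallothionein, S100A2, a calcium-binding protein, IFI16, a nuclear DNA sensor, and RGS4, which shortens signals of G-protein-coupled receptors. Their log2 differences lay between 5.18 for RGS4 and 5.95 for CD68.

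The genes with the largest deficit in RKO were led by a keratin and by growth factors. KRT19, a simple-epithelial keratin (chromosome 17, 41523617 to 41528308, minus strand), had 382, 394 and 406 in HCT-116 and 0.703 and 0.257 in RKO, a log2 difference of -8.08 ± 0.136 (SE, limma adjusted p = 4.1e-06). EREG, the EGF receptor ligand epiregulin, had 130.3, 132 and 125 in HCT-116 and 0.140 and 0 in RKO. AREG, the ligand amphiregulin from the same stretch of chromosome 4, had 164, 162 and 159 in HCT-116 and 0.512 and 0.325 in RKO. Neither ligand reached an FPKM of 1 in an RKO library. S100A4, a calcium-binding protein often used as a fibroblast and EMT marker, had 124, 124 and 118 in HCT-116 and 0.194 and 0.116 in RKO, a difference of -6.74 ± 0.0517 (SE, limma adjusted p = 2.4e-06). ALDH1A3, a retinal dehydrogenase that makes retinoic acid, had 109, 113 and 106 in HCT-116 and 0.311 and 0.201 in RKO. EEF1A2, the tissue-restricted form of translation elongation factor 1 alpha, had 126, 85.9 and 97.7 in HCT-116 and 0.234 and 0.118 in RKO. NPW, a neuropeptide precursor, S100A14, an epithelial S100 protein, MAGEB2, a cancer-testis antigen, LAPTM4B, a lysosomal membrane protein, MALL, a raft-associated membrane protein, and DKK1, a secreted Wnt inhibitor, completed the 12. Their log2 differences lay between -6.33 for NPW and -5.83 for DKK1.

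Genes of epithelial adhesion and polarity were lower in RKO as a group. Of 44 listed, 38 were tested, and all 32 that passed were lower in RKO, 26 of them by a log2 of at least 1. The median log2 difference of the 38 was -1.76, beside 0.03 over all genes tested. With no expression filter it was -1.34 over 44 members, beside -0.0108 over all genes. ST14, the membrane protease matriptase, had 49.8, 46.3 and 50.6 in HCT-116 and 0.0612 and 0 in RKO, a difference of -5.60 ± 0.0610 (SE, limma adjusted p = 2.4e-06). JUP, the junction protein plakoglobin, had 48.5, 54.5 and 53.8 in HCT-116 and 0.144 and 0.109 in RKO. MAL2, an apical trafficking protein, had 51.1, 51.2 and 49.5 in HCT-116 and 0.0536 and 0.195 in RKO. For all 3 the RKO libraries stayed below an FPKM of 0.2 while HCT-116 libraries stood above 46. CLDN7, a tight-junction claudin, had 24.5, 31.7 and 33.4 in HCT-116 and 0.223 and 0.105 in RKO, a difference of -4.72 ± 0.147 (SE, limma adjusted p = 1.8e-05). EPCAM differed by -3.90 ± 0.103 (SE, limma adjusted p = 1.2e-05) and CDH1 by -2.96 ± 0.134 (SE, limma adjusted p = 5.5e-05). The 6 members that did not pass included CTNNB1, beta-catenin, at 26.8, 25.9 and 23.9 in HCT-116 and 25.6 and 25.9 in RKO, a difference of 0.01 (limma adjusted p = 0.86). SPINT1, an inhibitor of matriptase, was at 23.4, 20.8 and 20.4 in HCT-116 and 20.9 and 18 in RKO, and did not pass either, at -0.14 (limma adjusted p = 0.24). CLDN4, another claudin, was at 25.1, 2.11 and 0.598 in HCT-116 and 0.0843 and 0.0887 in RKO, so HCT-116 replicate 1 stood alone, and its difference of -2.22 (limma adjusted p = 0.18) was not called. In the transcript table, whose values need not add to those of a gene, CLDN4-201 was at 64.5 in HCT-116 replicate 1 and at 0.00221 and 1.05 in replicates 2 and 3.

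Promoters of CLDN7 and of CRB3, an apical polarity protein, are shown because both hold several copies of CAGGTG or its complement CACCTG, the E-box that ZEB1 is known to bind. CRB3 had 6.26, 6.78 and 6.49 in HCT-116 and 0.113 and 0 in RKO, a log2 difference of -2.83. Both promoters were chosen after values and letters were seen. The 200 bases before a RefSeq start of each gene on GRCh38.p14 are printed 5′ to 3′ with these E-boxes in capitals, for CLDN7 from chr17:7262479-7262678 on the minus strand and for CRB3 from chr19:6464071-6464270 on the plus strand.
CLDN7: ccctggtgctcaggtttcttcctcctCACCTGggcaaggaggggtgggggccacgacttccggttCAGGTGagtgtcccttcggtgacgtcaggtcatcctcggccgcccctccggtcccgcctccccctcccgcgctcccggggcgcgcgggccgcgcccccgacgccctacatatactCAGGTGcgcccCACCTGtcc
CRB3: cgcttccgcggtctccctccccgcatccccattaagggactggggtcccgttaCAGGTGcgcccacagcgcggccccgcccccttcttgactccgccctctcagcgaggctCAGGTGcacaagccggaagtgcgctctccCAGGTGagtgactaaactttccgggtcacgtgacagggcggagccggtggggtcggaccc
The printed stretches hold 4 copies in CLDN7 and 3 in CRB3, counted on both strands. Of 13098 RefSeq windows of 300 bases at the starts of 9032 tested protein-coding genes, 18.5% hold at least 1 copy. A share over the 26 adhesion genes is not given because only 12 of them matched a window, which voids such a check. EPCAM and CDH1 are among those with no window in the table used. A match describes letters and does not show binding.

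All 8 keratins tested were lower in RKO. Some of them, such as KRT19 and KRT23, were below 1 FPKM in each RKO library. They reached the level for testing only through HCT-116, so they could not have come out higher in RKO. With no expression filter, 11 of 18 keratins were lower and 0 higher, with a median of -0.57. Over all genes, 5425 of 31844 were then lower. KRT8 had 157, 215 and 158 in HCT-116 and 3.26 and 3.30 in RKO. KRT18, with which it pairs in the filaments of simple epithelia, had 96.3, 95.2 and 98.4 in HCT-116 and 20.8 and 20.03 in RKO. The partners differed by unequal amounts, -5.36 for KRT8 and -2.19 for KRT18. KRT23, a keratin of the acidic type, had 3.66, 3.56 and 3.76 in HCT-116 and 0.0303 and 0 in RKO. Of the 19 keratins listed, 11 were too low to test, among them KRT20, a marker of differentiated colonocytes.

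Regulators that hold the epithelial state were lower as well. Of 13 tested, 10 were lower in RKO, 9 of them by a log2 of at least 1, and 2 were higher, with a median of -1.92. ESRP1, an epithelial splicing regulator, had 18.8, 18.7 and 18.7 in HCT-116 and 0.0188 and 0 in RKO, a difference of -4.29 ± 0.0442 (SE, limma adjusted p = 2.4e-06). ELF3, an ETS factor of surface epithelia, had 11.3, 10.3 and 11.1 in HCT-116 and 0.0319 and 0 in RKO, and KLF5, a zinc-finger factor of the crypt, had 20.5, 21.1 and 20.7 in HCT-116 and 1.51 and 1.63 in RKO. EHF, a relative of ELF3, had 7.85, 10.3 and 3.78 in HCT-116 and 0 and 0.0274 in RKO, and HCT-116 replicate 3 was the lowest of its line. ESRP2, the close relative of ESRP1, did not pass and was at 10.3, 10.6 and 9.94 in HCT-116 and 9.10 and 10.1 in RKO, a difference of -0.09 (limma adjusted p = 0.24). FOXA1, a pioneer factor, and OVOL2, a repressor of ZEB1, were higher in RKO at low levels. FOXA1 had 2.02 and 1.96 in RKO and 0.747, 0.865 and 0.761 in HCT-116, and OVOL2 had 1.24 and 1.22 in RKO and 0.992, 0.812 and 0.696 in HCT-116. The call of OVOL2 was lost under 7 of 16 alternatives: without HCT-116 replicate 2 or 3 or either RKO library, without a filter, with a common nuclear total and in the isoform sum, with adjusted p up to 0.12. ZEB1 (chromosome 10, 31318495 to 31529814, plus strand) had 23.5 and 15.3 in RKO and 0.502, 0.702 and 0.556 in HCT-116, a difference of 3.66 ± 0.188 (SE, limma adjusted p = 8.1e-05).

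Mesenchymal and EMT genes did not follow ZEB1 as a group. Of 45 listed, 27 were tested, 7 were higher in RKO and 17 lower, and 6 and 15 of these reached a log2 of 1, with a median of -1.10. CCN1, a secreted matrix protein induced by YAP, had 49.3 and 47.9 in RKO and 2.43, 3.04 and 2.81 in HCT-116, and AXL, a receptor tyrosine kinase, had 128 and 122 in RKO and 13.8, 14.1 and 14.8 in HCT-116. Both of these and ZEB1 were among the members with the largest excess in RKO. On the other side stood S100A4, CAV1, the coat protein of caveolae, with 81.7, 71.2 and 82.7 in HCT-116 and 2.79 and 2.90 in RKO, MSN, the membrane-actin linker moesin, with 58.4, 57.8 and 58.7 in HCT-116 and 1.99 and 2.11 in RKO, and TPM2, a tropomyosin, with 68.4, 68.3 and 64.4 in HCT-116 and 2.82 and 2.29 in RKO. In each of these, all RKO libraries were at or below an FPKM of 2.9 and all HCT-116 libraries were above 57. FN1, fibronectin, was low in both lines at 0.946, 3.76 and 2.41 in HCT-116 and 1.59 and 4.06 in RKO and did not pass at 0.20 (limma adjusted p = 0.74). SNAI1, a repressor of CDH1, was among the 17 lower members with 9.20, 7.80 and 8.62 in HCT-116 and 3.13 and 4.20 in RKO. With no expression filter the median of this list was 0.003.

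**Figure D1:**
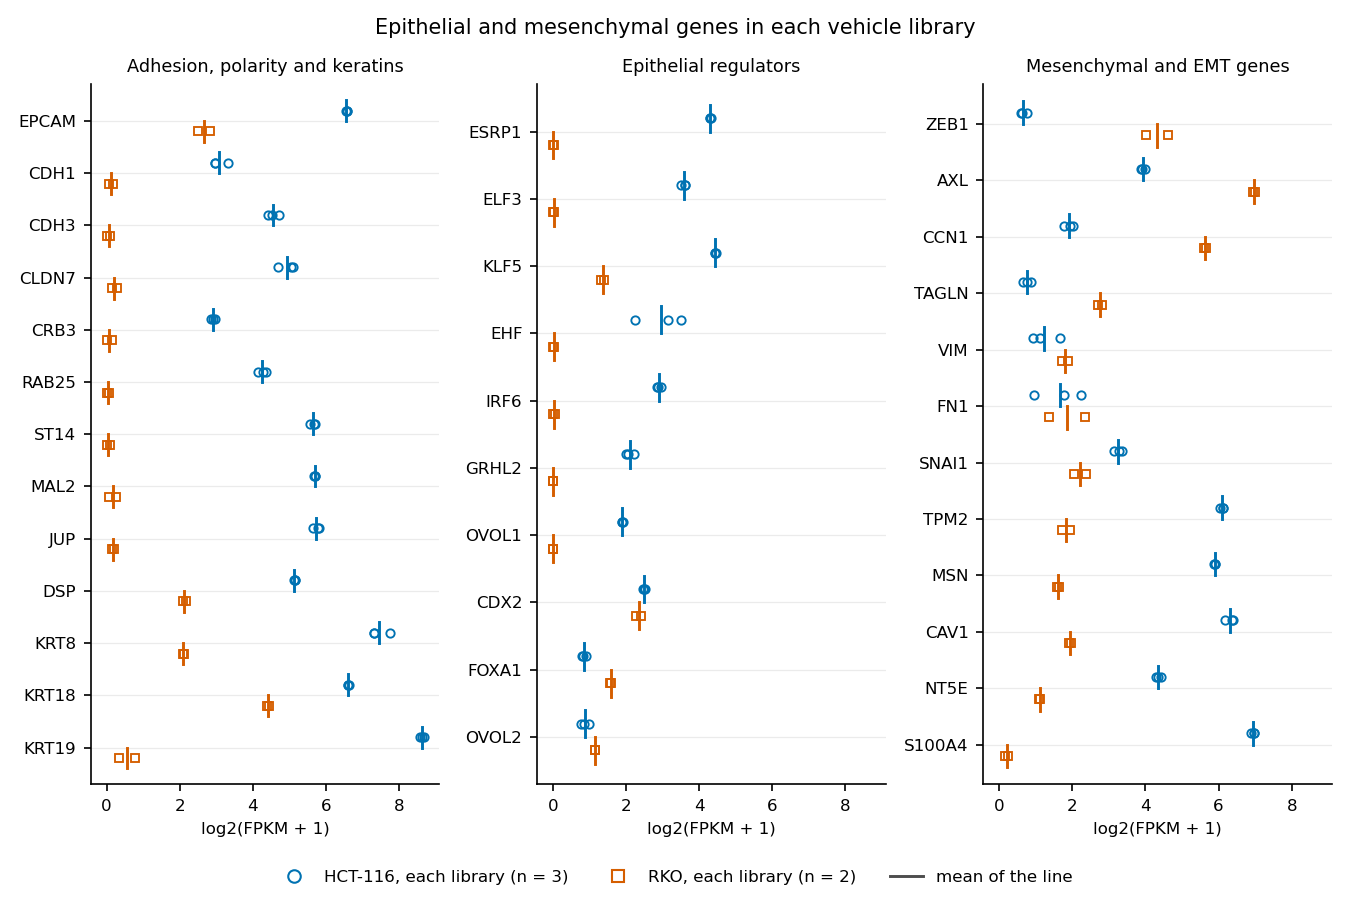
The panels plot log2(FPKM + 1) on the x axis for single genes, with circles for the 3 HCT-116 libraries, squares for the 2 RKO libraries and bars at each line's mean. Squares lie left of the circles for every gene of the adhesion panel, CDX2 and VIM lie close between lines, and mesenchymal genes split, with ZEB1 to TAGLN higher and SNAI1 to S100A4 lower in RKO.

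Cell attachment genes differed in both directions. Of 19 integrins, laminins and related genes tested, 8 were higher in RKO and 10 lower, 3 and 8 of them by a log2 of at least 1. LAMB3, a chain of epithelial laminin 332, had 154 and 138 in RKO and 17, 16.6 and 17.6 in HCT-116, and LAMA1, a chain of laminin 111, had 7.09 and 6.54 in RKO and 0, 0.0111 and 0.0144 in HCT-116. ITGB1, the common integrin beta 1 chain, had 251 and 195 in RKO and 68.6, 56.2 and 56 in HCT-116. ITGB4, the hemidesmosome integrin beta 4 chain, had 58.3, 56.3 and 63.8 in HCT-116 and 0.181 and 0.0392 in RKO, a difference of -5.77 ± 0.0852 (SE, limma adjusted p = 3.2e-06). ITGA3, a laminin-binding chain, had 38.5, 34.9 and 37.2 in HCT-116 and 5.07 and 5.95 in RKO. ITGA6, the partner of ITGB4, had 19.1, 19 and 19.9 in HCT-116 and 5.02 and 3.12 in RKO. ITGB4, ITGA3 and ITGA6 were thus lower in RKO and ITGB1 higher. ITGA7, another laminin-binding chain, was also higher in RKO, by a log2 of 0.31 (limma adjusted p = 0.0067).

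S100 and annexin genes, which encode small calcium-binding and membrane-binding proteins, differed in both directions. Of 19 tested, 5 were higher and 11 lower in RKO. S100A2 had 293 and 283 in RKO and 4.28, 5.24 and 4.79 in HCT-116 and S100A16 had 316 and 318 in RKO and 70.3, 69.3 and 72.7 in HCT-116. S100A14 had 90.1, 90.2 and 94.2 in HCT-116 and 0.239 and 0.139 in RKO, ANXA3 had 34.5, 36.2 and 33.8 in HCT-116 and 0.0652 and 0.00960 in RKO and ANXA1 had 103, 102 and 102 in HCT-116 and 4.08 and 3.69 in RKO. The S100A2, S100A4, S100A14 and S100A16 genes are all on chromosome 1, so members of 1 chromosome went in opposite directions.

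Intestinal identity was carried by few transcripts in either line. Of 47 genes of colonocytes, goblet cells and enteroendocrine cells, 42 were below the level for testing. Of the 5 tested, 4 were lower in RKO. CA2, a carbonic anhydrase, had 18.7, 19.6 and 19.6 in HCT-116 and 10.5 and 9.46 in RKO, and DPP4, a brush-border peptidase, had 1.36, 1.55 and 1.42 in HCT-116 and 0.0187 and 0 in RKO. TSPAN1, a tetraspanin, had 3.57, 3.85 and 4.12 in HCT-116 and 0.0583 and 0.0942 in RKO, and SLC12A2, a chloride cotransporter, had 7.74, 8.33 and 7.47 in HCT-116 and 4.76 and 4.29 in RKO. SLC26A2, a sulfate transporter, was the 1 higher in RKO, with 4.54 and 4.11 in RKO and 2.85, 2.80 and 2.81 in HCT-116. Among 14 intestinal transcription factors, 4 were higher and 7 lower. GATA4, an endodermal zinc-finger factor, was listed at 0 in every HCT-116 library and had 5.37 and 5.73 in RKO. SOX9, a factor of crypt progenitors, had 47.9, 48.1 and 48.5 in HCT-116 and 0.474 and 0.404 in RKO, a difference of -5.09 ± 0.0436 (SE, limma adjusted p = 2.4e-06). PPARG, a nuclear receptor, had 4.83, 5.09 and 5.15 in HCT-116 and 0 and 0.0209 in RKO.

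Wnt targets and feedback genes were lower in RKO. Canonical Wnt signalling stabilises beta-catenin, which binds TCF and LEF factors and switches on targets that include the pathway's own brakes. Of 22 tested, 16 were lower and 2 higher, 12 and 1 of them by a log2 of at least 1, with a median of -1.42. The size of this median depended on the processing. It was -0.245 over 33 members with no expression filter and -1.09 with quantile normalization. AXIN2, a scaffold that feeds back on beta-catenin, had 7.27, 6.50 and 7.61 in HCT-116 and 0.556 and 0.571 in RKO, a difference of -2.38 ± 0.0760 (SE, limma adjusted p = 1.9e-05). RNF43, the ligase that removes Wnt receptors, had 20.5, 19.8 and 19.8 in HCT-116 and 0 and 0.0150 in RKO, a difference of -4.38 ± 0.0464 (SE, limma adjusted p = 2.4e-06). DKK1, the secreted inhibitor, had 60.9, 64.5 and 63.1 in HCT-116 and 0.0593 and 0.188 in RKO. BMP4, a BMP ligand and Wnt target, had 25.4, 23 and 26.4 in HCT-116 and 0.712 and 0.606 in RKO. The lines did not overlap for any of these 4, and CTNNB1 itself did not pass, as given above. LEF1, a DNA-binding partner of beta-catenin, ran the other way with 4.03 and 3.93 in RKO and 0, 0 and 0.00824 in HCT-116, a difference of 2.31 ± 0.0506 (SE, limma adjusted p = 7.2e-06). TCF7L2, its relative in colon epithelium, had 12, 13 and 12.5 in HCT-116 and 2.92 and 3.34 in RKO. LGR4, a receptor for R-spondins, was at 1.48, 1.68 and 1.47 in HCT-116 and 1.27 and 1.30 in RKO and did not pass, at -0.15 (limma adjusted p = 0.088).

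MYC, an oncogene and Wnt target, differed between the RKO libraries. Its FPKM was 6.26, 4.16 and 10.3 in HCT-116 and 7.77 and 42 in RKO, and the difference of 1.37 (limma adjusted p = 0.17) was not called. RKO replicate 3 stood alone, and in the transcript table MYC-205 was at 54.7 there and at 2.93 in RKO replicate 2. Without RKO replicate 3 the log2 difference was 0.23 (adjusted p = 0.73) and without RKO replicate 2 it was 2.52 (adjusted p = 0.022).

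Upstream parts of the pathway differed in both directions. Of 25 Wnt ligands, receptors and inhibitors tested, 7 were higher in RKO and 13 lower, 1 and 8 of them by a log2 of at least 1. WNT16, a ligand, had 32.5, 32.6 and 32.5 in HCT-116 and 0.0696 and 0 in RKO, a difference of -5.02 ± 0.0498 (SE, limma adjusted p = 2.4e-06). WNT9A had 5.64, 5.92 and 6.07 in HCT-116 and 0.0115 and 0.00595 in RKO, and WNT10B had 4.15, 4.23 and 4.93 in HCT-116 and 0 and 0 in RKO. FZD8, a receptor, was the member higher in RKO by a log2 of at least 1, at 1.37 and 1.32 in RKO and 0.0719, 0.0392 and 0.0973 in HCT-116.

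Genes of growth factors and their receptors were lower in RKO more often than higher. The list holds the EGF family along with FGF, PDGF, VEGF, IGF and HGF ligands or receptors. In epithelial cells AREG, EREG and TGFA act on EGFR, which drives the RAS and ERK cascade. Of 21 growth factors, receptors and their regulators tested, 15 were lower in RKO and 4 higher, 11 and 1 of them by a log2 of at least 1, with a median of -1.06. With no expression filter the median of this list was -0.665. TGFA, transforming growth factor alpha, had 17.5, 18.4 and 18.7 in HCT-116 and 0.690 and 0.657 in RKO. ERRFI1, an inducible inhibitor of EGFR, had 127, 125 and 123 in HCT-116 and 4.87 and 4.79 in RKO, a difference of -4.43 ± 0.0352 (SE, limma adjusted p = 2.4e-06). EGFR itself had 10.4, 10.6 and 10.1 in HCT-116 and 2.81 and 2.65 in RKO, a difference of -1.60 ± 0.05 (SE, limma adjusted p = 1.8e-05). MET, the receptor of HGF, had 39.7, 36.2 and 33.7 in HCT-116 and 16.4 and 17 in RKO. HGF, hepatocyte growth factor, was the member higher in RKO by a log2 of at least 1, at 17.2 and 17.1 in RKO and 0, 0.0179 and 0 in HCT-116, a difference of 4.17 ± 0.0486 (SE, limma adjusted p = 2.4e-06). ERBB2, an EGFR relative, was at 8.43, 8.09 and 8.38 in HCT-116 and 8.10 and 9.02 in RKO and did not pass, at 0.04 (limma adjusted p = 0.6).

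ERK output genes differed in both directions. ERK activity induces its own inhibitors, of the Sprouty and dual-specificity phosphatase families, along with immediate-early transcription factors. Of 32 tested, 19 were higher in RKO and 10 lower, and 8 each way reached a log2 of 1, with a median of 0.31. SPRY4, a Sprouty inhibitor, had 74.5 and 73.8 in RKO and 15, 14.2 and 15 in HCT-116, and SPRY2 had 9.03 and 9.96 in RKO and 1.83, 1.9 and 1.77 in HCT-116. EGR1, an immediate-early factor, had 65.3 and 62.9 in RKO and 15.7, 17 and 17.8 in HCT-116. SH2B3, an adaptor that dampens cytokine signals, had 54.5 and 51.5 in RKO and 7.51, 7.11 and 7.57 in HCT-116, a difference of 2.68 ± 0.0501 (SE, limma adjusted p = 5.3e-06). DUSP4 and DUSP6 ran the other way. DUSP4, a nuclear ERK phosphatase, had 25.5, 26.4 and 27 in HCT-116 and 0.280 and 0.357 in RKO, a difference of -4.37 ± 0.0531 (SE, limma adjusted p = 2.5e-06). DUSP6, the cytoplasmic ERK phosphatase, had 30.8, 38.7 and 39.5 in HCT-116 and 18.2 and 16.5 in RKO, a difference of -1.02 ± 0.126 (SE, limma adjusted p = 0.0016). IER3, an early response gene, had 213, 215 and 218 in HCT-116 and 40.5 and 39.5 in RKO. The cyclins that open G1 differed in opposite directions. CCND1, cyclin D1, had 171, 167 and 187 in HCT-116 and 36.2 and 40.9 in RKO. CCND2, cyclin D2, had 0, 0.0655 and 0.0348 in HCT-116 and 31 and 28.8 in RKO.

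Genes of TGF-beta and BMP signalling differed in both directions. Of 22 ligands, transducers and targets tested, 13 were lower and 6 higher, 7 and 3 of them by a log2 of at least 1. ID1, an inhibitor of differentiation that BMP signals induce through SMAD proteins, had 104, 98.7 and 102 in HCT-116 and 2.52 and 2.95 in RKO. ID2 had 12.9, 13.4 and 13.5 in HCT-116 and 0.476 and 0.566 in RKO, and ID3 had 17.1, 16.8 and 20.1 in HCT-116 and 5.56 and 5.45 in RKO. All 3 were lower in RKO with no overlap. SMAD3, the transducer of TGF-beta signals, had 10.3, 11.1 and 11.1 in HCT-116 and 0.381 and 0.364 in RKO, a difference of -3.11 ± 0.0551 (SE, limma adjusted p = 4.7e-06). GDF15, a stress-induced cytokine, had 225, 213 and 229 in HCT-116 and 10.5 and 9.50 in RKO. LTBP2, a matrix protein of the latent TGF-beta binding family, and TGFB1, the ligand TGF-beta 1, were higher. LTBP2 had 11.3 and 10.5 in RKO and 0.571, 0.710 and 0.855 in HCT-116, and TGFB1 had 48.2 and 50.4 in RKO and 22.4, 22 and 22.8 in HCT-116.

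Notch components also differed in opposite directions. Of 27 Notch and ephrin genes tested, 9 were higher and 13 lower in RKO, 3 and 11 by a log2 of at least 1. HES1, a Notch target, had 7.51, 6.93 and 7.75 in HCT-116 and 0.675 and 0.466 in RKO. NOTCH3, a receptor, had 5.11, 4.91 and 5.42 in HCT-116 and 0.165 and 0.166 in RKO, and JAG1, a ligand, had 11.3, 11.5 and 11.2 in HCT-116 and 1.58 and 1.58 in RKO. Other parts of the pathway were higher in RKO. NRARP, another Notch target, had 27.2 and 26.6 in RKO and 9.12, 8.81 and 8.83 in HCT-116. DLL1, a ligand, had 5.93 and 5.46 in RKO and 2.19, 2.16 and 2.05 in HCT-116, and EFNB2, an ephrin, had 52.5 and 52.5 in RKO and 17.9, 19.1 and 19.2 in HCT-116.

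**Figure D2:**
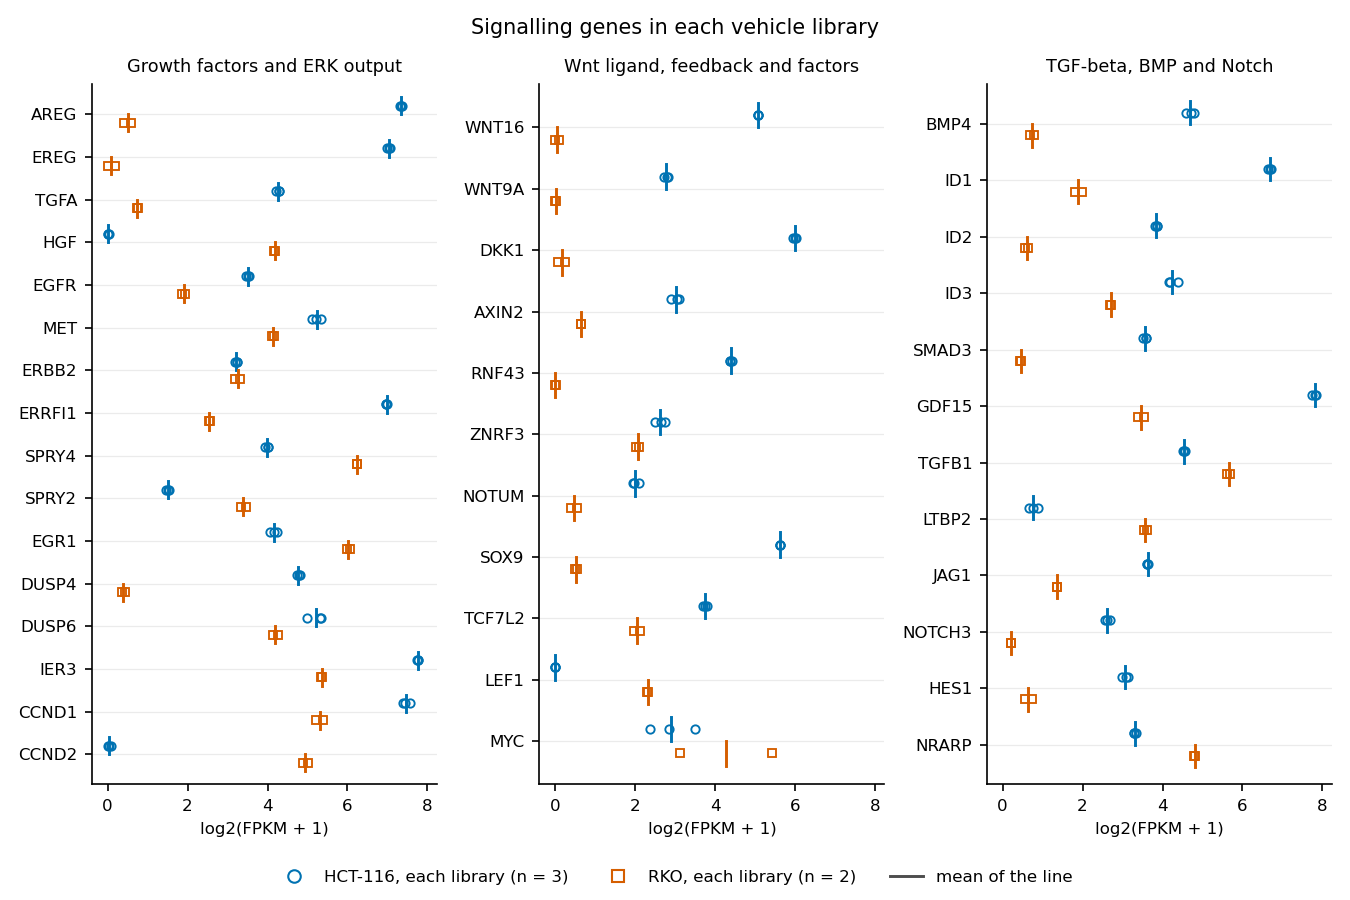
The panels plot log2(FPKM + 1) on the x axis for signalling genes, with circles for the 3 HCT-116 libraries, squares for the 2 RKO libraries and bars at each line's mean. AREG, EREG, WNT16, DKK1, RNF43 and SOX9 are near 0 in RKO, while HGF, CCND2 and LEF1 are near 0 in HCT-116, and the 2 RKO values of MYC lie far apart.

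Of 21 genes of the mismatch repair list tested, 4 were higher in RKO and 11 lower. EXO1, the exonuclease of the pathway, had 16.7 and 17.6 in RKO and 10.8, 10.7 and 10.3 in HCT-116. PMS2, a subunit of the endonuclease that acts after a mismatch is found, had 5.79, 5.56 and 5.91 in HCT-116 and 3.17 and 3.09 in RKO, a difference of -0.71 ± 0.0498 (SE, limma adjusted p = 0.00022). Both differed by less than a log2 of 1.

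Of 54 genes known for promoter methylation in colorectal cancer, 20 were tested, 12 were lower in RKO and 5 higher, 8 and 3 of them by a log2 of at least 1. CDKN2A, which encodes the cell cycle inhibitors p16INK4a and p14ARF from separate promoters, had 9.96, 8.44 and 8.76 in HCT-116 and 0.0766 and 0.0498 in RKO. HLTF, a DNA translocase of replication forks, had 8.55, 10.5 and 8.39 in HCT-116 and 0.0101 and 0.00744 in RKO. RUNX3, a tumour-suppressing transcription factor, had 7.55, 7 and 7.85 in HCT-116 and 0 and 0 in RKO, and BNIP3, a mitophagy receptor, had 7.19, 7.02 and 6.33 in HCT-116 and 0.153 and 0.269 in RKO. None of these 4 reached an FPKM of 0.3 in RKO. GATA4, DAPK1, a death-associated kinase, HIC1, a transcriptional repressor, and MGMT, which removes alkyl groups from guanine, ran the other way. DAPK1 had 5.15 and 5.22 in RKO and 0.595, 0.677 and 0.699 in HCT-116 and MGMT had 2.70 and 2.63 in RKO and 0.934, 0.825 and 1.04 in HCT-116. Summed over transcripts MGMT was lower in RKO, at -0.64 (adjusted p = 0.086), so its direction depends on the table used. Methylation was not measured in these libraries, so these are levels of RNA alone.

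The promoters of CDKN2A and RUNX3 are printed because the transcripts that start there were near 0 or listed at 0 in RKO. Each line gives the 200 bases before a RefSeq start on GRCh38.p14, on the minus strand and 5′ to 3′, with CG dinucleotides, the sites of DNA methylation, in capitals. The p14ARF promoter of CDKN2A is from chr9:21995325-21995524, its p16INK4a promoter from chr9:21974858-21975057, and the downstream promoter of RUNX3 from chr1:24930277-24930476.
CDKN2A p14ARF: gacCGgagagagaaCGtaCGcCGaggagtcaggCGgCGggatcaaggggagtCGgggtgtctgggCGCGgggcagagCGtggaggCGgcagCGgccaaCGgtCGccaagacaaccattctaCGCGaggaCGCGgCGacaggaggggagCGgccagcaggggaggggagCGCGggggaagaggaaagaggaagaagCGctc
CDKN2A p16INK4a: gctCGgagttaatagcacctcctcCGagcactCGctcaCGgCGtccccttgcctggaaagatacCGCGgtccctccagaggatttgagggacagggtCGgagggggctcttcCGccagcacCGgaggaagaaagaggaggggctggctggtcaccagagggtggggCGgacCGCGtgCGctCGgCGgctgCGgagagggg
RUNX3 downstream: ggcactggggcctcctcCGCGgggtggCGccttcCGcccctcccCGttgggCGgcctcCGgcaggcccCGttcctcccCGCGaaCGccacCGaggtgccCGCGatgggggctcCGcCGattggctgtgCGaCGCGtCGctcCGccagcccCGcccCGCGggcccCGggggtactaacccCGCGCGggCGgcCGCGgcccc
They hold 23, 17 and 31 CG dinucleotides. Over windows of 300 bases, the CDKN2A promoters have 28 and 26 and RUNX3 has 38, beside a median of 26 over 13098 windows of tested protein-coding genes. The p14ARF and RUNX3 windows are thus above that median. In the transcript table, transcripts starting within 1000 bases of the p14ARF window summed to 21.5, 20.5 and 22.8 FPKM in HCT-116 and to 0.0105 and 0.148 in RKO. Those of the p16INK4a window summed to 5.12, 4.06 and 3.76 in HCT-116 and to 0.0375 and 0 in RKO. For RUNX3, the downstream start gave 8.71, 8.08 and 9.06 in HCT-116 and 0 in both RKO libraries, and the upstream start was listed at 0 in all 5 libraries.

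Genes present in 1 line and near 0 in the other were counted apart, as a description, since no fold has a meaning against a value of 0. With a ceiling of 0.1 FPKM in every library of 1 line and a floor of 5 in every library of the other, 128 genes were off in RKO, 125 of them protein coding, and 36 were off in HCT-116, 28 of them protein coding. By mean level in HCT-116, those off in RKO were led by MALL, ST14, GTSF1, a gonadal factor of the piRNA pathway, ANXA3, TNS4, a focal adhesion tensin, WNT16, ADAM19, a membrane metalloprotease, and ANO1, a calcium-gated chloride channel. GTSF1 had 35.6, 38.7 and 37.1 in HCT-116 and 0.0182 and 0 in RKO. TNS4 had 33.6, 33.9 and 35.6 in HCT-116 and 0.0251 and 0.0140 in RKO, and ANO1 had 29.6, 30.3 and 31.3 in HCT-116 and 0.0382 and 0 in RKO. Those off in HCT-116 were led by SST, which encodes the hormone somatostatin. SST had 58.5 and 11.1 in RKO and 0, 0 and 0 in HCT-116, so the RKO libraries were far apart. CCND2, SCCPDH, a lipid-droplet protein, HGF, PLBD1, a lysosomal phospholipase-like protein, and CGAS, the cytosolic DNA sensor, followed. SCCPDH had 23.4 and 22.4 in RKO and 0, 0.0902 and 0.0532 in HCT-116 and PLBD1 had 15.8 and 15.2 in RKO and 0, 0.0548 and 0.0194 in HCT-116. TRBV12-4 and TRBV12-3, near-identical T-cell receptor V segments, were also among the 8, at 35.5 and 30.9 for the first and 16.8 and 14.1 for the second in RKO, and reads may be split between such copies.

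Genes of DNA damage response and growth arrest were lower in RKO more often than higher. Of 32 tested, 20 were lower and 5 higher, 10 and 1 of them by a log2 of at least 1, with a median of -0.38. CDKN1A, the cyclin-dependent kinase inhibitor p21, had 140.4, 118 and 163 in HCT-116 and 40.3 and 44 in RKO, a difference of -1.70 ± 0.146 (SE, limma adjusted p = 0.00045). PLK2, a polo-like kinase, had 19.9, 19.8 and 18.8 in HCT-116 and 0.153 and 0.223 in RKO, and FDXR, a mitochondrial reductase, had 24.7, 22.8 and 25.6 in HCT-116 and 8.14 and 7.64 in RKO. All 3 were lower in RKO with no overlap. BAX, a pro-apoptotic protein, was higher in RKO with 52.6 and 55.6 in RKO and 28.3, 29.4 and 33.1 in HCT-116, and MDM2, a ubiquitin ligase, did not pass, at 13.6, 15.6 and 13.1 in HCT-116 and 14 and 12.5 in RKO. Among 32 apoptosis regulators, 11 were higher and 10 lower, 65.6% passing beside 64.5% of all genes. BCL2A1, which blocks apoptosis, had 63 and 63.2 in RKO and 0, 0.157 and 0.111 in HCT-116. MCL1, which also blocks it, had 202 and 196 in RKO and 51.4, 44.1 and 45 in HCT-116, and BAK1, which opens pores in mitochondria, had 60.4 and 62.9 in RKO and 9.42, 16.9 and 17.8 in HCT-116. TNFRSF6B, a decoy receptor for Fas ligand, had 38.9, 35.7 and 47.6 in HCT-116 and 0.114 and 0.0574 in RKO, and BIK, a BH3-only killer protein, had 15.7, 15.9 and 15.3 in HCT-116 and 1.92 and 1.48 in RKO.

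Few proliferation genes differed by a large amount. Of 42 genes of DNA replication and the G1-S step, 19 were higher and 15 lower, and 5 reached a log2 of 1, a share of 11.9% beside 19.0% of all genes. CCND2, CDKN2A, CCND1 and CDKN1A were among the 5. PCNA, the replication clamp, was at 193, 195 and 192 in HCT-116 and 184 and 178 in RKO and did not pass, at -0.09 (limma adjusted p = 0.062), though it passed under 4 of 17 alternatives. Of 35 mitotic genes, 17 were lower and 7 higher, 68.6% passing beside 64.5% of all genes, and 4 of the lower genes reached a log2 of 1. HMMR, a spindle-associated hyaluronan receptor, had 13.2, 15.3 and 14.1 in HCT-116 and 1.16 and 1.19 in RKO, a difference of -2.80 ± 0.0745 (SE, limma adjusted p = 1.2e-05), and CDC20, an activator of the anaphase-promoting complex, had 126, 119 and 124 in HCT-116 and 61.7 and 59.4 in RKO.

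Interferon response genes differed in both directions. Of 36 interferon response genes tested, 15 were higher in RKO and 11 lower, 10 and 6 of them by a log2 of at least 1, with a median of 0.03. IFI16 had 49.9 and 50.1 in RKO and 0.0232, 0.160 and 0.0897 in HCT-116. CGAS had 14.4 and 14.8 in RKO and 0.0147, 0.0285 and 0.0104 in HCT-116, and MX1, an antiviral GTPase, had 3.77 and 3.64 in RKO and 0.0142, 0.0506 and 0.0587 in HCT-116. STING1, the adaptor that CGAS signals through, had 3.65, 3.41 and 3.73 in HCT-116 and 0.00959 and 0 in RKO, a difference of -2.19 ± 0.058 (SE, limma adjusted p = 1.2e-05), so the sensor was high in RKO where its adaptor was near 0, and the reverse held in HCT-116. HERC5, a ligase for ISG15, had 3.79, 3.23 and 3 in HCT-116 and 0 and 0.0604 in RKO, and IFITM3, a membrane protein against virus entry, had 105, 67.5 and 112 in HCT-116 and 31.5 and 32.9 in RKO.

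MHC class I genes were mostly higher in RKO. MHC class I molecules present peptides, cut by proteasomes and carried by TAP, to T cells. Of 23 genes tested, 16 were higher and 3 lower, 4 and 1 of them by a log2 of at least 1, with a median of 0.43. HLA-B had 29.5, 23 and 29.5 in HCT-116 and 5.07 and 6.37 in RKO, a difference of -2.08 ± 0.148 (SE, limma adjusted p = 0.00023). The HLA genes are close relatives and highly variable between people, so counting against 1 reference can shift reads between them. PSMB8, an immunoproteasome subunit, had 5.55 and 5.42 in RKO and 0.0121, 0.0886 and 0.0403 in HCT-116, and ERAP2, a peptide-trimming enzyme, had 5.78 and 5.03 in RKO and 0.308, 0.398 and 0.344 in HCT-116. CD274, the checkpoint ligand PD-L1, had 62.7 and 22.5 in RKO and 0.643, 0.638 and 0.719 in HCT-116, a difference of 4.54 ± 0.425 (SE, limma adjusted p = 0.00061), and the RKO libraries were far apart while both stood above HCT-116. TAP1 was at 12.5, 12.7 and 12.7 in HCT-116 and 12 and 13.7 in RKO and did not pass, at 0.02 (limma adjusted p = 0.77). Of 18 NF-kB and inflammatory genes, 10 were higher and 5 lower. IL32, a pro-inflammatory cytokine, had 28.2 and 26.6 in RKO and 0.455, 0.351 and 0.644 in HCT-116, ICAM1, an adhesion molecule for leukocytes, had 16.2 and 16.1 in RKO and 2.23, 2.16 and 2.90 in HCT-116, and IL18, an inflammasome cytokine, had 8.57, 8.80 and 7.57 in HCT-116 and 0 and 0 in RKO.

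The study gave these lines an aldehyde, and the following are levels of redox and aldehyde genes without it. Of 23 aldehyde dehydrogenases, aldo-keto reductases and relatives tested, 8 were higher and 8 lower in RKO, 6 each way by a log2 of at least 1. CBR1, a carbonyl reductase on chromosome 21, had 35.3 and 35.2 in RKO and 0, 0.206 and 0.0369 in HCT-116, and CBR3, its neighbour, had 4.87 and 5.70 in RKO and 1.06, 0.275 and 0.854 in HCT-116. AOX1, an aldehyde oxidase, had 6.20 and 6.38 in RKO and 0.0227, 0.170 and 0.0340 in HCT-116, and AKR7A3, an aflatoxin aldehyde reductase, had 5.22 and 5.71 in RKO and 0.460, 0.337 and 0.525 in HCT-116. ALDH1A3, given above, AKR1B1, aldose reductase, DHRS3, a retinal reductase, and ALDH3B1 were higher in HCT-116. AKR1B1 had 12.1, 9.38 and 9.96 in HCT-116 and 0.0918 and 0.0833 in RKO and DHRS3 had 9.21, 9.09 and 10.2 in HCT-116 and 0.143 and 0.0404 in RKO.

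NRF2 is the factor that induces glutathione and quinone-reducing enzymes. Of 43 of its targets and glutathione genes tested, 24 were lower in RKO and 13 higher, 12 and 6 of them by a log2 of at least 1, with a median of -0.31. NFE2L2, which encodes NRF2, had 19.2, 19.7 and 18.1 in HCT-116 and 3.40 and 8.90 in RKO, a difference of -1.60 (limma adjusted p = 0.013). The RKO libraries were apart, and the difference was -2.18 (adjusted p = 0.00051) without RKO replicate 3 and -1.01 (adjusted p = 0.002) without RKO replicate 2. ME1, malic enzyme, had 30.0, 31.4 and 28.4 in HCT-116 and 0.0275 and 0 in RKO, ABCC2, an exporter of glutathione conjugates, had 18.7, 18.8 and 18.4 in HCT-116 and 0.0321 and 0.0578 in RKO. SLC7A11, the cystine importer, had 15.1, 16.6 and 15.3 in HCT-116 and 2.24 and 1.93 in RKO. The ferritin chains went in opposite directions. FTH1, the heavy chain, had 592, 612 and 578 in HCT-116 and 96.1 and 99.4 in RKO, and FTL, the light chain, had 1679, 1718 and 1766 in HCT-116 and 2851 and 3066 in RKO. NQO1, the quinone reductase, had 125, 123 and 118 in HCT-116 and 27.3 and 21.9 in RKO. GSTM1, GSTA4 and GSTM3, glutathione transferases, were higher in RKO, with 11.9 and 11.4 in RKO and 0.0134, 0 and 0.00479 in HCT-116 for GSTM1 and 4.74 and 4.50 in RKO and 0.197, 0.252 and 0.299 in HCT-116 for GSTA4. KEAP1, the inhibitor of NRF2, was at 33.8, 31 and 27.8 in HCT-116 and 29.3 and 27.3 in RKO and did not pass, at -0.12 (limma adjusted p = 0.32). Of 17 genes of drug conjugation and export tested, the 10 that passed were all lower in RKO. They were 58.8% of the list, beside 64.5% passing and 31.1% lower over all genes. CYP24A1, which inactivates vitamin D, was among them with 14.4, 15.8 and 15.1 in HCT-116 and 0 and 0 in RKO.

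Metallothioneins are small proteins that bind zinc and copper. Of 7 genes of their list tested, 4 were higher in RKO and 3 lower, and all 3 that differed by a log2 of at least 1 were higher. The higher genes were all metallothioneins, and the lower ones were MT1F, also a metallothionein, SLC30A1, a zinc exporter, and MTF1, the metal-responsive transcription factor. Each of these 3 differed by less than 0.3 on the log2 scale and lost its call under 5 to 8 alternatives, leaving out single libraries among them. MT1M had 53.2 and 54.6 in RKO and 0, 0 and 0.181 in HCT-116. MT2A had 1915 and 2028 in RKO and 481, 514 and 456 in HCT-116, and MT1X had 78.4 and 78.7 in RKO and 21, 21.8 and 21.6 in HCT-116, a difference of 1.82 ± 0.0365 (SE, limma adjusted p = 6.1e-06).

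Lipid genes were lower in RKO more often than higher. Of 37 genes of cholesterol and fatty acid synthesis tested, 21 were lower and 7 higher, 8 and 2 of them by a log2 of at least 1. ELOVL5, an elongase of polyunsaturated fatty acids, had 27.8, 26.2 and 27.2 in HCT-116 and 0.113 and 0.169 in RKO, FADS1, a desaturase, had 10.6, 10.6 and 9.84 in HCT-116 and 0.102 and 0.0762 in RKO. ACSL5, an acyl-CoA synthetase, had 41, 40.2 and 38.8 in HCT-116 and 4.51 and 4.05 in RKO. SQLE, squalene epoxidase, had 52.8 and 49.7 in RKO and 21.7, 21.6 and 21.7 in HCT-116 and ACSL1 had 12.5 and 11.6 in RKO and 3.56, 4.02 and 3.88 in HCT-116. For glycolysis and hypoxia, 11 of 37 were higher and 18 lower. EPAS1, hypoxia factor 2 alpha, had 7.63, 9.26 and 9.86 in HCT-116 and 1.13 and 1.17 in RKO, SLC16A3, a lactate exporter, had 60.9, 46 and 62 in HCT-116 and 14.6 and 18.4 in RKO. HK1, a hexokinase, had 34.7 and 33.1 in RKO and 12.4, 15.4 and 16.5 in HCT-116.

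HOX genes differed in both directions, also within 1 cluster. HOX genes lie in 4 clusters and record the position of a tissue along the body axis. Of 30 HOX and partner genes tested, 12 were higher in RKO and 10 lower, 7 and 6 by a log2 of at least 1. HOXB8 had 24.8, 23.2 and 24.5 in HCT-116 and 2.46 and 3.22 in RKO, and HOXB6 had 17.5, 17.1 and 16.1 in HCT-116 and 3.43 and 3.03 in RKO. HOXB5 had 10.1, 8.41 and 10.5 in HCT-116 and 1.51 and 1.76 in RKO, and HOXB4 had 12.2, 13.3 and 12.3 in HCT-116 and 1.89 and 4.62 in RKO. All 4 were lower in RKO. HOXB2, in the same cluster on chromosome 17, was higher in RKO with 5.42 and 10.4 in RKO and 0.561, 0.612 and 0.442 in HCT-116. HOXD9 had 6.20 and 6.20 in RKO and 0, 0.0233 and 0.0247 in HCT-116, and HOXC8 had 6.53 and 7.66 in RKO and 0.348, 0.633 and 0.527 in HCT-116. Of 12 cancer-testis genes tested, germline genes that tumours can switch on, 5 were lower in RKO and 3 higher. That was 66.7% passing, beside 64.5% of all genes. MAGEB2 had 81, 80.8 and 80.7 in HCT-116 and 0.114 and 0 in RKO, and MAGEA3 had 30.1, 29.2 and 46.6 in HCT-116 and 0.132 and 0 in RKO. MAGEA2 had 18.3, 17.1 and 17.3 in HCT-116 and 0 and 0 in RKO, and CSAG3 had 9.49, 9.98 and 9.27 in HCT-116 and 0 and 0 in RKO. The MAGEA genes are near-identical copies between which reads may be split. Of 12 neuroendocrine and neuronal genes tested, 3 were higher and 5 lower, also 66.7% passing. SYT1, a synaptic vesicle calcium sensor, had 10.0, 8.77 and 9.09 in HCT-116 and 0.0108 and 0.0221 in RKO. Among 27 Hippo pathway genes, 7 were higher and 10 lower, 63.0% passing beside 64.5% of all genes. YAP1, the effector of the pathway, was at 14.3, 25.4 and 23.3 in HCT-116 and 19.5 and 20.1 in RKO and did not pass, at -0.04 (limma adjusted p = 0.89). HCT-116 replicate 1 was the lowest of its line, and without it YAP1 passed, at -0.29 (adjusted p = 0.022).

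Among 38 chromatin and DNA methylation enzymes, 16 were higher and 16 lower. SMARCA1, a nucleosome remodeller on the X chromosome, had 13.8, 13.4 and 14.3 in HCT-116 and 0.0251 and 0.0303 in RKO, a difference of -3.85 ± 0.0524 (SE, limma adjusted p = 2.9e-06). DNMT3B, a de novo DNA methyltransferase, had 9.93, 8.95 and 9 in HCT-116 and 2.75 and 2.29 in RKO, a difference of -1.55 ± 0.0830 (SE, limma adjusted p = 9.2e-05). DNMT1, which copies methylation after replication, was at 28.9, 28.6 and 30.2 in HCT-116 and 30.6 and 32.7 in RKO and did not pass, at 0.11 (limma adjusted p = 0.1). EP300, an acetyltransferase, had 5.96, 6.36 and 6.18 in HCT-116 and 1.97 and 2.07 in RKO, and KDM6B, a histone demethylase, had 11.7 and 17.6 in RKO and 6.29, 5.15 and 6.4 in HCT-116.

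Several large lists differed by little. Of 46 cytosolic ribosomal protein genes tested, 36 were higher in RKO and 2 lower, with 2 of the higher ones past a log2 of 1 and a median of 0.39. RPL35 had 709 and 720.3 in RKO and 283, 281 and 276 in HCT-116, and RPL7A had 669.5 and 656 in RKO and 329, 268 and 259 in HCT-116. Both had the largest excess in the list and are on chromosome 9. Ribosomal protein genes have many pseudogene copies, so reads may be shared. Of 13 protein-coding mitochondrial genes, 2 were higher and 5 lower, none by a log2 of 1, with 53.8% passing beside 64.5% of all genes. MT-ND1, a subunit of complex I, had 4754, 4833 and 4381 in HCT-116 and 2821 and 2954 in RKO. Of 18 housekeeping genes, 6 were higher, 6 lower and 6 did not pass, with a median of -0.01. The passing share was 66.7%, near the 64.5% of all genes. ACTB, beta-actin, was at 405, 425 and 449 in HCT-116 and 402 and 410.0 in RKO, a difference of -0.07 (limma adjusted p = 0.31), while POLR2A, the largest subunit of RNA polymerase II, had 79.1, 78.8 and 79.5 in HCT-116 and 35.4 and 35.9 in RKO, a difference of -1.13 ± 0.0322 (SE, limma adjusted p = 1.4e-05).

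**Figure D3:**
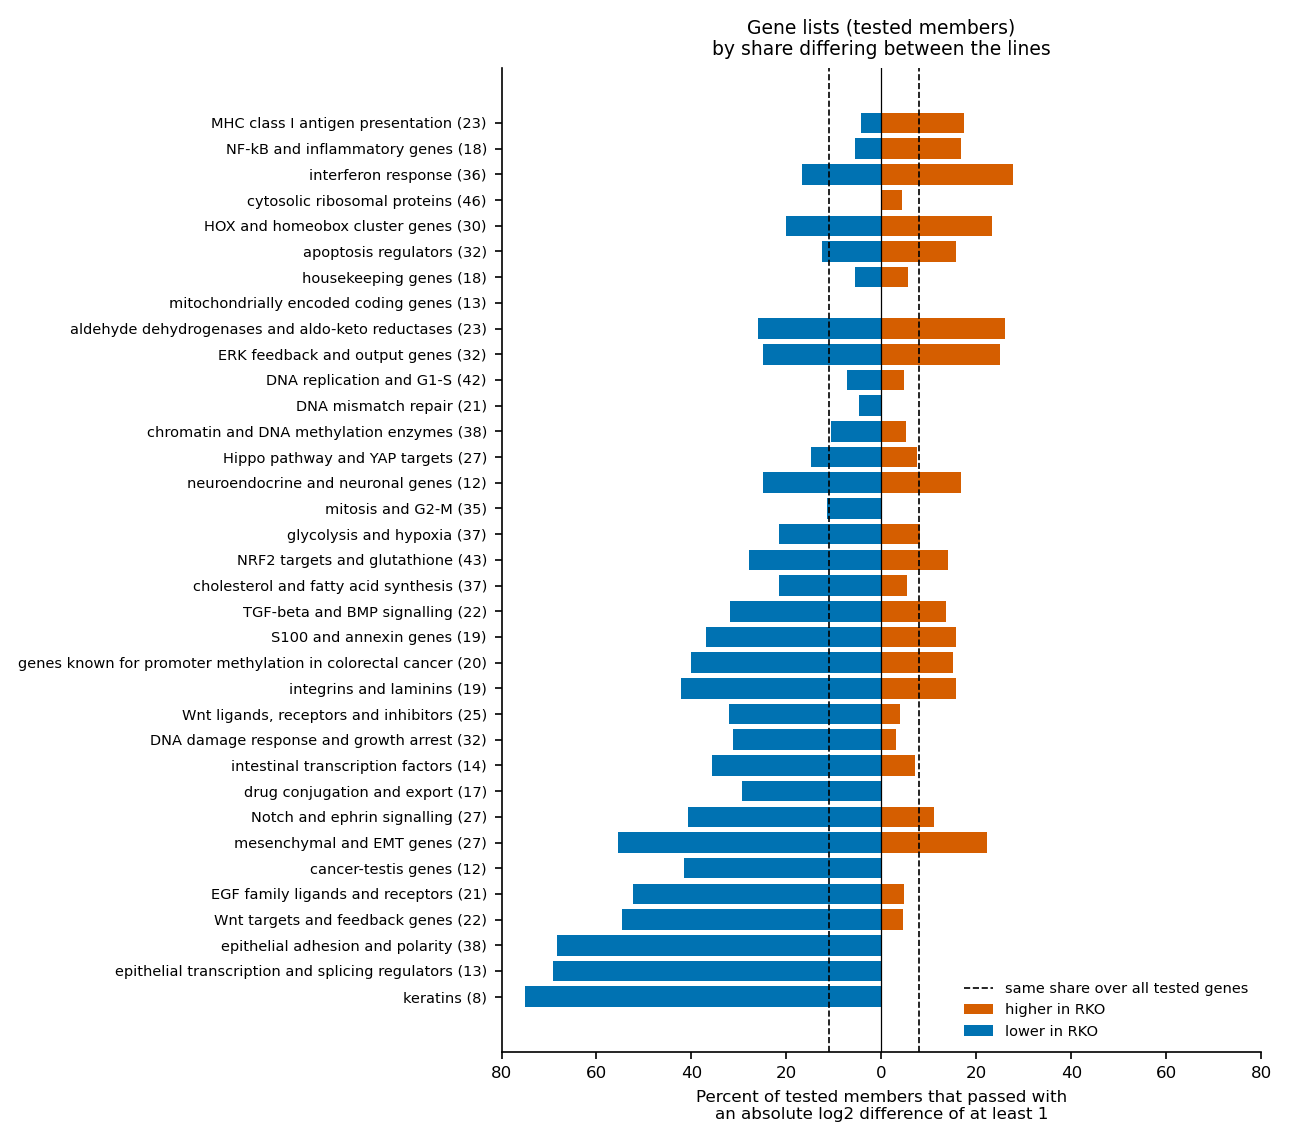
For lists with at least 8 tested members (number in brackets), the bars give on the x axis the percent of tested members that passed with an absolute log2 difference of at least 1, to the right when higher and to the left when lower in RKO. Dashed lines mark 7.94% and 11.1%, the same shares over all tested genes; keratins, epithelial regulators and adhesion genes reach farthest to the left, and interferon response genes farthest to the right.

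Differences also followed position in the genome. Over protein-coding genes, the median log2 difference of chromosome 9 lay 0.413 above that of all genes (467 genes), and those of chromosomes 8, 7 and 20 lay 0.217, 0.211 and 0.207 above. Chromosome 17 lay lowest at -0.256 (709 genes), followed by chromosome 22 at -0.161 and chromosome 10 at -0.14. On chromosome 9, 101 of 467 genes were higher in RKO by a log2 of at least 1 and 40 lower; on chromosome 17, 34 of 709 were higher and 104 lower. In bins of 10 Mb with at least 20 genes, the highest medians were those of chromosome 9 from 130 to 140 Mb, 0.786 above all genes (98 genes), and from 120 to 130 Mb, 0.727 above (99 genes). On chromosome 17 the 4 bins from 50 Mb to the end lay between -0.542 and -0.635, while the lowest bin of all, on chromosome 10 from 100 to 110 Mb, lay at -0.664 (63 genes). On chromosome 16 the last bin, from 80 Mb, lay at -0.595 (73 genes). Genes named above sit in these stretches: RPL7A and RPL35 in the highest bins, and SOX9 and ITGB4 in the lowest bins of chromosome 17. Neighbouring genes are not independent, DNA copy number was not measured in these libraries, and its part was not tested.

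**Figure D4:**
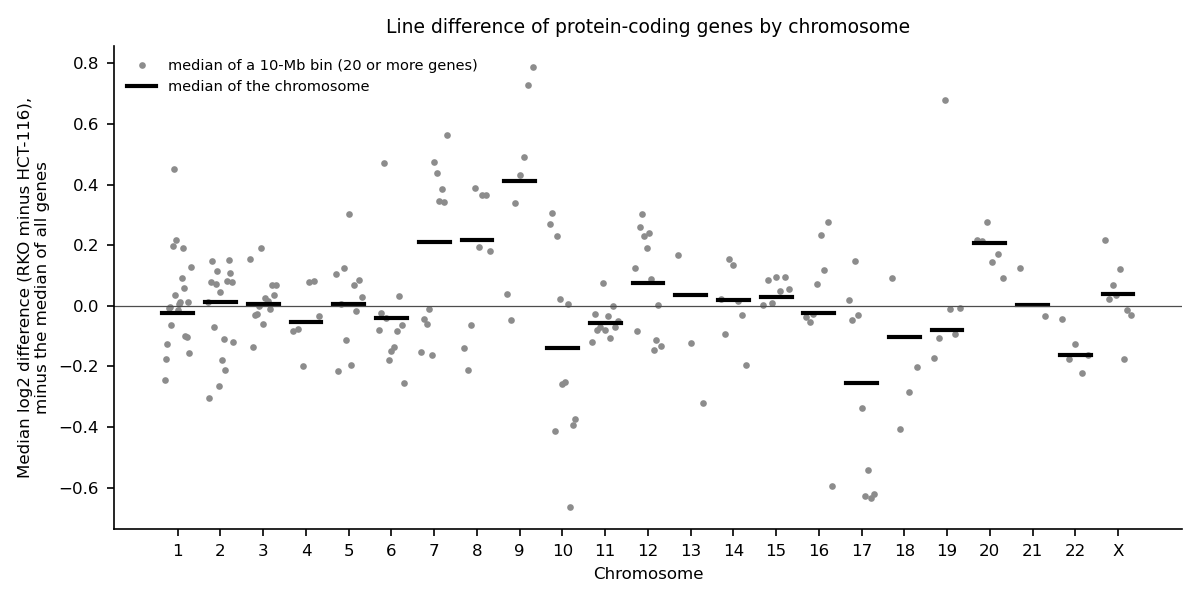
Grey points are medians over bins of 10 Mb with at least 20 tested protein-coding genes, in order along each chromosome on the x axis, and black bars are the medians of whole chromosomes; the y axis is the log2 difference, RKO minus HCT-116, minus the median of all genes. The upper bins of chromosomes 7 and 9 lie above 0.3 and the last 4 bins of chromosome 17 lie below -0.5.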

How the data were processed

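RNA of 5 vehicle libraries was compared, 3 of HCT-116 and 2 of RKO. The deposited tables hold FPKM per gene and per transcript, made by the authors. Per the submitters' processing notes, reads were trimmed with cutadapt 1.9 and checked with FastQC, and the genome build was GRCh38. No aligner, quantifying tool, gene annotation or strand setting is given in the sources used here, so reads of overlapping antisense genes may be shared. A value of 0.0001 in the tables was read as 0. No counts were used, and depth was estimated from single-fragment steps in genes with 1 transcript. Of 60612 gene IDs, 58477 were matched to a symbol and 58394 to a place in GENCODE 29.

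Levels were compared as log2(FPKM + 1), with a pseudocount of 1, by limma 3.58.1 with a mean-variance trend in R 4.3.3, for genes reaching 1 FPKM in 2 or more libraries. Differences are RKO minus HCT-116, two-sided, with Benjamini-Hochberg adjustment over 13071 genes. On simulated data of 13071 genes for this comparison, 78% of genes changed by a log2 of 1 and 96% of those changed by 2 were called, and 0.09% of unchanged genes. That simulation changed 100 genes by each amount, while 64.5% of genes passed here. The adjusted threshold depends on how many genes differ, so these rates do not carry over to this comparison. Sequences are from RefSeq tables on GRCh38.p14. Alternatives changed the pseudocount, filter, scaling, table, variance model, replicate block and libraries.

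The comparison and its 40 lists (1292 genes) were chosen with earlier results of these data known. Text names the 12 largest differences per direction, up to 4 genes per direction and up to 4 uncalled genes per list, fixed markers, and the 8 highest genes off in each line. ALB, APOA1, CD14, CRB3, EGFR, FTL, GCG, ID3, ITGA7, MET, NFE2L2, NQO1, SMAD3, SNAI1, TCF7L2 and TTR fall outside that rule. So do some genes drawn in the plots, and all of these were chosen after their values were seen. Some items are not reported here.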

Additional observations from a re-analysis of the deposited data

How the results depend on the processing

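Limits are the small number of libraries, 2 against 3, with 3 residual degrees of freedom, the FPKM unit without counts, and the log2(FPKM + 1) scale, which flattens genes near 0. Replicate numbers 2 and 3 occur in both lines. Deviations of same-numbered libraries had correlations of -0.124 and -0.107, and crossed pairs had 0.124 and 0.107. With 2 RKO libraries their deviations mirror each other, so this check cannot show whether same-numbered libraries share more than a number. With the replicate block, 7320 genes passed (3773 higher and 3547 lower in RKO) and 2477 with a log2 of at least 1. The block gave the same median log2 difference over all genes, 0.0283, as leaving out HCT-116 replicate 1, so these alternatives are not independent. Leaving out 1 library gave 7071 to 7942 genes passing, 2462 to 2495 of them with a log2 of at least 1, and where 1 RKO library was left its spread was assumed to be that of HCT-116. A filter at an FPKM of 5, which tests 7469 genes, gave 5115 (2768 higher and 2347 lower) and 1377 with a log2 of at least 1 (651 and 726). Across the 17 alternatives the share higher in RKO among genes passing ran from 43.2%, with a common total of nuclear FPKM, to 54.1%, beside 51.8%. On and off counts moved with their thresholds: with on from an FPKM of 1, 549 genes were off in RKO and 176 in HCT-116, and with off below 0.5, 71 were off in HCT-116. Chromosome 9 lay at 0.602 and chromosome 17 at -0.273 with the filter at 5. Leaving out libraries in turn, chosen as an alternative after seeing the data for on and off counts, chromosomes and the mitochondrial share, gave 134 to 145 genes off in RKO, 36 to 41 off in HCT-116 and 0.4 to 0.445 for chromosome 9. Medians of lists that changed sign were, without a filter, 0.003 for mesenchymal genes, -0.017 for NF-kB genes, -0.033 for aldehyde genes, 0.035 for neuroendocrine genes and -0.018 for the metallothionein list, with the nuclear total -0.031 for aldehyde genes and -0.011 for apoptosis genes, and with the filter at 5, 0.071 for Notch genes. Of 208 named genes put through the alternatives, 191 had passed. Of these, 186 kept their direction and stayed past the threshold under every alternative that tested them. The exceptions were OVOL2, MT1F, MTF1 and SLC30A1, which lost the call, and MGMT, at -0.642 in the isoform sum. Most named genes were picked for large differences, so this count does not carry over to all 8427 genes that passed. Genes that had not passed and changed sign were CDX2 (0.145, isoform sum), CTNNB1 (-0.099 with the nuclear total, -0.031 with median-of-ratios factors, -0.038 with quantile normalization), ERBB2 (-0.066 with the nuclear total, -0.002 with median-of-ratios factors, -0.099 in the isoform sum), FN1 (-0.128 in the isoform sum, -0.153 with the replicate block) and TAP1 (-0.085, -0.018 and -0.029 with the 3 scalings in the order given for CTNNB1). Leaving out 1 library gave -0.032 to 0.046 for CTNNB1, -0.031 to 0.108 for ERBB2, -0.285 to 0.679 for FN1, -0.065 to 0.111 for TAP1 and -0.286 to 0.107 for YAP1. Genes that had not passed and passed elsewhere were PCNA (common nuclear total, median-of-ratios factors, quantile normalization and robust prior), ACTB, CDX2 and ESRP2 (nuclear total), LGR4 (nuclear total and isoform sum), YAP1 (-0.286 with the replicate block, adjusted p = 0.0477 by limma, and without HCT-116 replicate 1), VIM (without HCT-116 replicate 2) and MYC (without RKO replicate 2). The cause was not tested.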
